A study of Homo sapiens with 14 samples.

Results

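The small RNA silencing machinery was followed here as 9 genes of the 63677 listed in each expression table: TNRC6A, TNRC6B, TNRC6C, AGO2, DICER1, DROSHA, DGCR8, XPO5 and TARBP2. All 9 were found by gene name in both tables. The set was chosen by the log2 change of TNRC6A against the control siRNA, which was negative with siRNAs of both targets, so the TNRC6A values against that control describe the choice and carry no test. The 8 partners were added for their known function, and the question was whether they moved as well.

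RNA was sequenced from KYSE510, a line of esophageal squamous cell carcinoma, 48 h after transfection of small interfering RNA (siRNA) with lipofectamine RNAiMAX. In the EZH2 series, siEZH2-1 and siEZH2-2, both against the histone methyltransferase EZH2, were compared with the negative control siNC. In the LAT1 series, siLAT1-2 and siLAT1-3, both against the amino acid transporter LAT1 (gene SLC7A5), were compared with a separate siNC. Each of the 6 groups had 2 libraries, and all of them, siNC included, were from cells given an siRNA. The labels do not say whether the 2 libraries of a group are from different cultures. A p-value here therefore reflects variation among these libraries alone, which could be technical. The cells are 1 cultured line, and in bulk RNA fewer cells with a transcript and less of it per cell cannot be told apart.

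MicroRNAs are cut from long primary transcripts in the nucleus by DROSHA with its binding partner DGCR8, exported by XPO5, and trimmed in the cytoplasm by DICER1 with its partner TARBP2. The mature strand is held by an Argonaute protein such as AGO2, and the TNRC6 proteins (also called GW182 proteins) bind Argonaute and recruit the deadenylases that shorten the tail of the target mRNA. Transfected siRNAs enter the same Argonaute proteins, and AGO2 is the human Argonaute best known for cutting a matched target.

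The tables held FPKM, a level scaled by gene length and library depth. Depth, estimated from the steps in the low values of short genes, was 21.3 to 27.5 M reads per library in the EZH2 series and 12.9 to 16.7 M reads in the LAT1 series. EZH2 mRNA was at 40.6% of siNC with siEZH2-1 and 36.4% with siEZH2-2. SLC7A5 mRNA was at 20.3% of siNC with siLAT1-2 and 26.0% with siLAT1-3, and also at 24.9% with siEZH2-1 and 78.6% with siEZH2-2. All 9 squamous epithelial markers examined had a mean of at least 1 FPKM in both series. So did 1 of 6 fibroblast markers in both series and 1 of 4 endothelial markers in the LAT1 series, the highest mean among these being 2.00 FPKM, and none of 5 immune markers did.

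TNRC6A had the lowest and DROSHA the highest log2 change against siNC of the 9 genes in both series, so the 250 bases before their annotated start sites are shown, from RefSeq on GRCh38.p14. The TNRC6A window is chr16:24729401-24729650 on the plus strand, with 71.6% G or C and 21 CpG. The DROSHA window is chr5:31532094-31532343 on the minus strand, with 62.0% G or C and 22 CpG. Over all 35116 windows of this length the medians were 58.0% and 11 CpG. Capitals mark matches to 4 motifs, searched on both strands. The first is the GC box, GGGCGG. The second is the CCAAT box, named by its letters and read ATTGG from the other strand. The third is the ETS core, CCGGAA. The fourth is the YY1 core, CCATCTT.
TNRC6A: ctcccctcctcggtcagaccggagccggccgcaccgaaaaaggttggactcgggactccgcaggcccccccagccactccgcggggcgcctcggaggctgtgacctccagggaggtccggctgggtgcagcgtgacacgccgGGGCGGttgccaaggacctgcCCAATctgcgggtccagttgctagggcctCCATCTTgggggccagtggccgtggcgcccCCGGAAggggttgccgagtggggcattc
DROSHA: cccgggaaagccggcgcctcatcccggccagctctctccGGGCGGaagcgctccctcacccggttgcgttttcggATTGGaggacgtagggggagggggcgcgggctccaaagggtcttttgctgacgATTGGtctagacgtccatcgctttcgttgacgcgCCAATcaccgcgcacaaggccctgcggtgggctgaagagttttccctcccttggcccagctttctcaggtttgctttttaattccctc
The TNRC6A window held 1 match each to the GC box, the CCAAT box, the ETS core and the YY1 core. The DROSHA window held 1 GC box and 3 CCAAT boxes, and no match to the ETS or YY1 core. No matches overlapped, and neither window held TATAAA, the TATA box. Of all windows, 42.6% held the GC box, 32.0% the CCAAT box, 14.5% the ETS core, 3.7% the YY1 core and 10.7% the TATA box. These motifs were chosen after both sequences had been seen, and a match is a description of the letters only.

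In siNC cells the 9 transcripts spanned a wide range of levels per length. In the EZH2 series TNRC6A was highest at 18.4 ± 1.14 FPKM (mean ± SD, n = 2 here and below), followed by DICER1 at 14.0 ± 2.62, XPO5 at 14.0 ± 0.219, DROSHA at 11.7 ± 0.375, AGO2 at 8.93 ± 0.820 and TARBP2 at 8.88 ± 1.42. DGCR8 at 5.08 ± 0.311, TNRC6B at 2.75 ± 0.205 and TNRC6C at 1.44 ± 0.113 FPKM came last. The ranges of DICER1 and XPO5 overlapped, as did those of AGO2 and TARBP2, and no other neighbours overlapped. In the siNC cells of the LAT1 series the order was XPO5 at 24.1 ± 0.438 FPKM, TNRC6A at 20.1 ± 0.318, DICER1 at 20.0 ± 0.0141, DROSHA at 15.8 ± 0.0707, AGO2 at 11.1 ± 0.191, TARBP2 at 6.36 ± 0.735, DGCR8 at 5.53 ± 0.0778, TNRC6B at 3.38 ± 0.262 and TNRC6C at 0.73 ± 0.0141 FPKM. There the ranges of TNRC6A and DICER1 overlapped and no others did. Each table was normalized on its own, so levels are not compared between series.

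**Figure D1:**
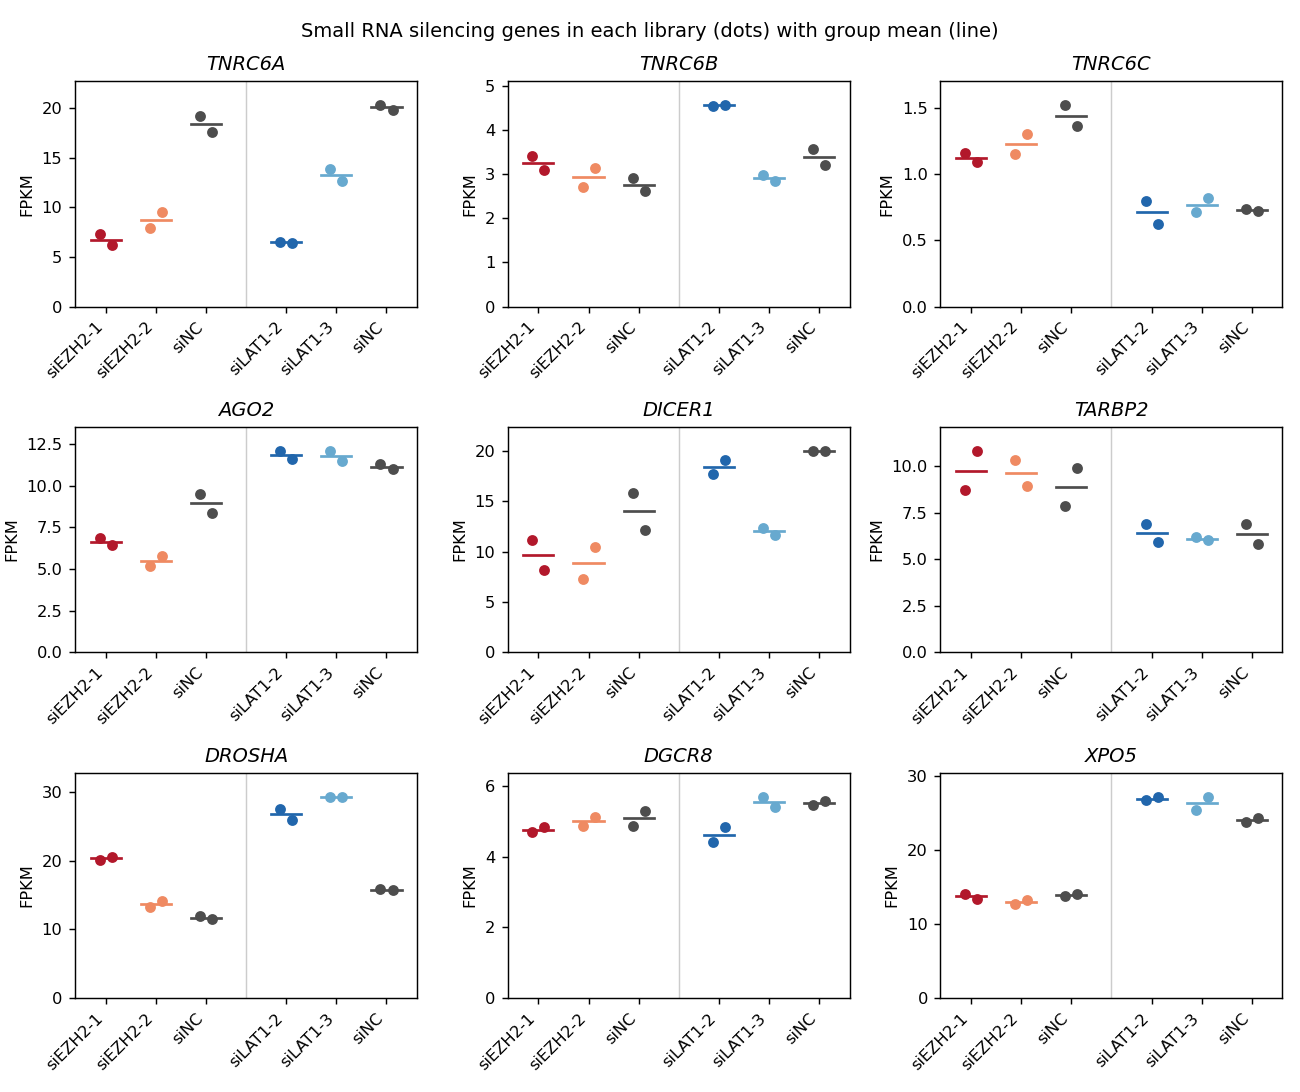
Level of each of the 9 genes in every library (FPKM, dots; lines are group means, 2 libraries per group), with siRNA groups left of the siNC of their series. TNRC6A lies below siNC with all 4 siRNAs and DROSHA above it, while TARBP2 overlaps siNC with each of them. TNRC6B is above siNC with siEZH2-1 and siLAT1-2 and below it with siLAT1-3. DGCR8 is below siNC with siEZH2-1 and siLAT1-2.

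TNRC6A, the most abundant of the 3 TNRC6 transcripts, had 7.28 and 6.20 FPKM with siEZH2-1 and 7.90 and 9.49 FPKM with siEZH2-2, against 19.19 and 17.58 FPKM with siNC. TNRC6A had 6.49 and 6.45 FPKM with siLAT1-2 and 13.82 and 12.68 FPKM with siLAT1-3, against 20.3 and 19.85 FPKM with siNC. Every siRNA library lay below both siNC libraries of its series. These are the values that chose the set. TNRC6A was at 36.7% of siNC with siEZH2-1, 47.3% with siEZH2-2, 32.2% with siLAT1-2 and 66.0% with siLAT1-3. On the log2(FPKM + 1) scale the change of the mean of both siRNAs was -1.17 in the EZH2 series, the 10th lowest of 11585 genes, and -1.03 in the LAT1 series, the 8th lowest of 11678. The choice did not use the difference between siRNAs of 1 target. TNRC6A was 0.93 log2 units higher with siLAT1-3 than with siLAT1-2 (95% interval 0.81 to 1.05, limma adjusted p = 5.32e-05), a contrast in which 25.5% of all genes were called. With siEZH2-2 it was 0.32 log2 units above siEZH2-1 (0.07 to 0.58, limma adjusted p = 0.09), which did not pass, where 16.3% of all genes were called.

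TNRC6B, which binds Argonaute in the same way, was not lower with the siRNAs as a group. It had 3.40 and 3.09 FPKM with siEZH2-1 and 2.71 and 3.14 FPKM with siEZH2-2, against 2.90 and 2.61 FPKM with siNC. The siEZH2-1 libraries were above both siNC libraries and those of siEZH2-2 overlapped them, and the log2 change of the mean was 0.12 (95% interval -0.07 to 0.31, limma adjusted p = 0.301). In LAT1 libraries TNRC6B had 4.55 and 4.56 FPKM with siLAT1-2 and 2.99 and 2.85 FPKM with siLAT1-3, against 3.57 and 3.20 FPKM with siNC. Both siLAT1-2 libraries were above siNC and both siLAT1-3 libraries below it. TNRC6B rose with siLAT1-2 (log2 change 0.34, SE 0.07, limma adjusted p = 0.00938), where 18.6% of all genes were called higher. Without siNC replicate 2 that change was 0.28 and did not pass (adjusted p = 0.0605). With siLAT1-3 its log2 change was -0.16 (adjusted p = 0.121, limma), and it was lower with siLAT1-3 than with siLAT1-2 by -0.50 log2 units (SE 0.07, adjusted p = 0.00256, limma). The 2 genes were thus ordered oppositely between these siRNAs: TNRC6A was lower and TNRC6B higher with siLAT1-2 than with siLAT1-3.

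TNRC6C, the scarcest of the 3, had 1.16 and 1.09 FPKM with siEZH2-1 and 1.15 and 1.30 FPKM with siEZH2-2, against 1.52 and 1.36 FPKM with siNC. All 4 siRNA libraries were below both siNC libraries, a split toward lower values that 15.3% of all genes showed, but the log2 change of -0.17 did not pass (95% interval -0.36 to 0.03, limma adjusted p = 0.17). TNRC6C had 0.80 and 0.62 FPKM with siLAT1-2 and 0.71 and 0.82 FPKM with siLAT1-3, against 0.74 and 0.72 FPKM with siNC. Its mean over that series, 0.735 FPKM, was under the minimum of 1 FPKM, so it was not tested there. TMC6, a gene that overlaps TNRC6C in the annotation, had 1.64 to 2.17 FPKM in the EZH2 series and 1.27 to 2.06 FPKM in the LAT1 series, and whether counting used strand is not stated, so reads of overlapping genes cannot be told apart.

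The makeup of the TNRC6 transcripts differed between the siRNA and siNC libraries, with TNRC6B called higher with siLAT1-2 alone. TNRC6A made up 61.5% and 59.7% of the summed FPKM of the 3 genes with siEZH2-1 and 67.2% and 68.1% with siEZH2-2, against 81.3% and 81.6% with siNC. Its share was 54.8% and 55.5% with siLAT1-2 and 78.9% and 77.6% with siLAT1-3, against 82.5% and 83.5% with siNC. The summed level was 11.1 ± 1.03 FPKM with siEZH2-1 and 12.8 ± 1.53 with siEZH2-2, against 22.6 ± 1.46 with siNC. It was 11.7 ± 0.148 FPKM with siLAT1-2 and 16.9 ± 0.827 with siLAT1-3, against 24.2 ± 0.594 with siNC. These shares and sums rest on the values that chose the set and were not tested.

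DROSHA, the nuclear enzyme that makes the first cut, moved in the opposite direction to TNRC6A and rose in both series. It had 20.15 and 20.51 FPKM with siEZH2-1 and 13.20 and 14.15 FPKM with siEZH2-2, against 11.98 and 11.45 FPKM with siNC. DROSHA had 27.53 and 25.94 FPKM with siLAT1-2 and 29.21 and 29.29 FPKM with siLAT1-3, against 15.84 and 15.74 FPKM with siNC. Every siRNA library was above both siNC libraries of its series. Of all genes, 25.1% were placed so with siEZH2 and 24.4% with siLAT1. The level was 174% of siNC with siEZH2-1 and 117% with siEZH2-2, and 169% with siLAT1-2 and 185% with siLAT1-3. The log2 change of the mean was 0.79 in the LAT1 series (SE 0.03, limma adjusted p = 1.94e-05), the 99th highest of 11678 genes. In the EZH2 series it was 0.48 (SE 0.05, limma adjusted p = 0.0015), the 557th highest of 11585, and with both siRNAs pooled as 1 group the adjusted p was 0.152. By the mean contrasts, 17.0% of all genes were called higher with siEZH2 and 19.3% with siLAT1.

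The rise of DROSHA differed in size between the EZH2 siRNAs. With siEZH2-1 its log2 change was 0.75 (SE 0.06, limma adjusted p = 5.94e-04). With siEZH2-2 it was 0.21 (SE 0.06, limma adjusted p = 0.0499), and leaving out any 1 of the 6 libraries ended that call, with adjusted p between 0.0784 and 0.194, as did quantile normalization (0.0555) and no filter on low values (0.099). The difference, siEZH2-2 minus siEZH2-1, was -0.54 (95% interval -0.69 to -0.40, limma adjusted p = 0.00262). With siLAT1-2 the change was 0.72 (adjusted p = 3.99e-05, limma) and with siLAT1-3 it was 0.85 (adjusted p = 2.39e-05, limma). The difference, siLAT1-3 minus siLAT1-2, of 0.13 did not pass (0.04 to 0.22, limma adjusted p = 0.0516), and without siLAT1-2 replicate 1 it was 0.17 and passed (adjusted p = 0.0429), as it did at a minimum of 5 FPKM (0.0356).

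DGCR8, the RNA-binding subunit of the same complex, did not share the rise of DROSHA. It had 4.69 and 4.83 FPKM with siEZH2-1 and 4.87 and 5.13 FPKM with siEZH2-2, against 4.86 and 5.30 FPKM with siNC. DGCR8 had 4.41 and 4.83 FPKM with siLAT1-2 and 5.69 and 5.41 FPKM with siLAT1-3, against 5.47 and 5.58 FPKM with siNC. Both siEZH2-1 and both siLAT1-2 libraries were below their siNC libraries, and the other siRNAs overlapped siNC. The log2 change of the mean was -0.05 in the EZH2 series (95% interval -0.20 to 0.10, limma adjusted p = 0.591) and -0.11 in the LAT1 series (-0.23 to 0.02, limma adjusted p = 0.164). DGCR8 fell with siLAT1-2 (log2 change -0.22, SE 0.06, limma adjusted p = 0.0332), where 13.9% of all genes were called lower. That call ended without siLAT1-2 replicate 1 (adjusted p = 0.144), siNC replicate 1 (0.108) or siNC replicate 2 (0.139), and with no filter on low values (0.0925). It was 0.22 higher with siLAT1-3 than with siLAT1-2 (adjusted p = 0.037, limma), a call that ended without siLAT1-2 replicate 1 (0.158), either siLAT1-3 library (0.146 and 0.0797) or either siNC library (0.0694 and 0.0696), and with no filter (0.101).

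DROSHA mRNA therefore outnumbered DGCR8 mRNA per length by more in the siRNA libraries. The ratio of DROSHA to DGCR8 FPKM was 4.30 and 4.25 with siEZH2-1 and 2.71 and 2.76 with siEZH2-2, against 2.47 and 2.16 with siNC. It was 6.24 and 5.37 with siLAT1-2 and 5.13 and 5.41 with siLAT1-3, against 2.90 and 2.82 with siNC. No siRNA group overlapped siNC in either series, while the 2 LAT1 siRNAs overlapped each other. The ratio was not tested apart from its genes.

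**Figure D2:**
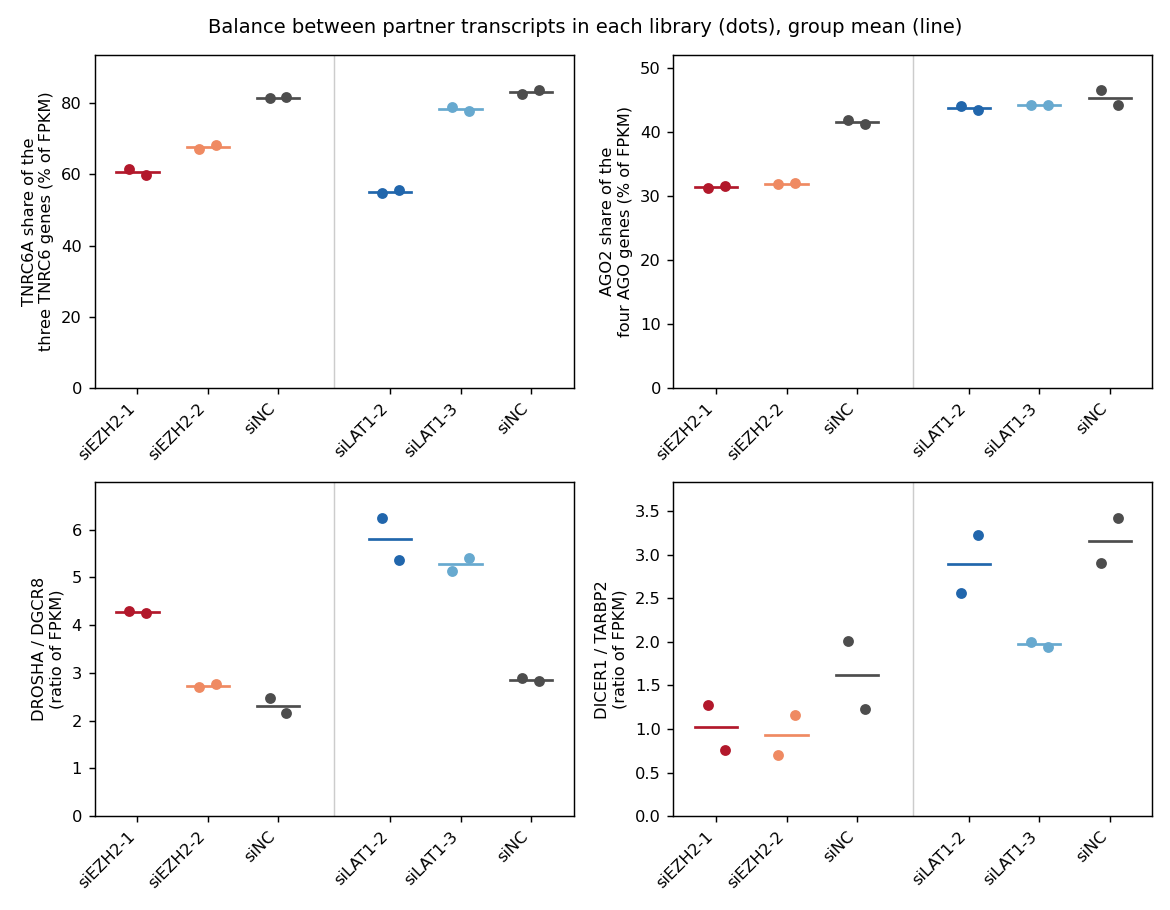
TNRC6A share of TNRC6 FPKM, AGO2 share of AGO1 to AGO4 FPKM, and the ratios DROSHA to DGCR8 and DICER1 to TARBP2 in each library (dots) with group means (lines), siRNA groups left of their siNC. The DROSHA to DGCR8 ratio is above siNC in all 8 siRNA libraries, and the AGO2 share is near 32% with both EZH2 siRNAs against over 41% with siNC.

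XPO5, which carries precursor microRNAs out of the nucleus, had small changes. It had 14.06 and 13.46 FPKM with siEZH2-1 and 12.77 and 13.28 FPKM with siEZH2-2, against 13.80 and 14.11 FPKM with siNC. The siEZH2-2 libraries were below both siNC libraries and those of siEZH2-1 overlapped them, and the log2 change was -0.06 (95% interval -0.18 to 0.06, limma adjusted p = 0.427). XPO5 had 26.74 and 27.23 FPKM with siLAT1-2 and 25.51 and 27.19 FPKM with siLAT1-3, against 23.79 and 24.41 FPKM with siNC. All 4 siRNA libraries were above siNC, and XPO5 rose by a small step of 0.14 on the log2 scale (SE 0.04, limma adjusted p = 0.0206). The call ended without siLAT1-2 replicate 2 (adjusted p = 0.0515), siNC replicate 1 (0.136) or siNC replicate 2 (0.0742), with no filter on low values (0.0717) and with both siRNAs pooled as 1 group (0.0971). With siLAT1-2 alone the log2 change was 0.16 (adjusted p = 0.0241, limma), which ended on leaving out any 1 of the siLAT1-2 or siNC libraries (0.0668 to 0.124) and with no filter (0.0814). With siLAT1-3 it was 0.12 (adjusted p = 0.0564, limma), and without siLAT1-3 replicate 1 it was 0.17 and passed (0.0372), as it did at a minimum of 5 FPKM (0.0375). POLR1C, which overlaps XPO5 in the annotation, had 5.13 to 6.70 FPKM in the EZH2 series and 8.26 to 9.89 FPKM in the LAT1 series.

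DICER1, the cytoplasmic enzyme that releases the mature duplex, was lower than siNC in all 8 siRNA libraries, but by very different amounts. It had 17.67 and 19.10 FPKM with siLAT1-2 and 12.37 and 11.67 FPKM with siLAT1-3, against 19.95 and 19.97 FPKM with siNC. The siLAT1-3 libraries were far below siNC and the siLAT1-2 libraries just below it. DICER1 fell with siLAT1-3 (log2 change -0.69, SE 0.05, limma adjusted p = 1.39e-04), where 13.6% of all genes were called lower. With siLAT1-2 the change was -0.11 (95% interval -0.23 to 0.00, limma adjusted p = 0.121). The difference, siLAT1-3 minus siLAT1-2, was -0.57 (SE 0.05, limma adjusted p = 3.52e-04). The fall of the mean by 0.40 (SE 0.04, limma adjusted p = 6.46e-04) thus joined 2 unlike values, and with both siRNAs pooled as 1 group its adjusted p was 0.257. All 4 siRNA libraries being lower was seen for 16.9% of all genes, and 15.3% were called lower by the mean contrast.

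In the EZH2 series DICER1 had 11.15 and 8.21 FPKM with siEZH2-1 and 7.24 and 10.40 FPKM with siEZH2-2, against 15.83 and 12.12 FPKM with siNC. The 4 siRNA libraries were below both siNC libraries, but libraries of 1 group differed widely, and the log2 change of -0.55 did not pass (95% interval -0.98 to -0.13, limma adjusted p = 0.0568). It passed without siEZH2-1 replicate 1 (-0.65, adjusted p = 0.0405) and without siEZH2-2 replicate 2 (-0.67, adjusted p = 0.0258), with quantile normalization (-0.56, adjusted p = 0.0481) and at a minimum of 5 FPKM (-0.55, adjusted p = 0.0413). The log2 change was -0.49 with siEZH2-1 (adjusted p = 0.121, limma) and -0.62 with siEZH2-2 (adjusted p = 0.0714, limma), the second passing without siEZH2-2 replicate 2 (-0.85, adjusted p = 0.0394). The higher library of each group was also the one with the lower share of FPKM in ribosomal protein genes. That share was 6.94% in siEZH2-1 replicate 1, 7.15% in siEZH2-2 replicate 2 and 6.84% in siNC replicate 1, where DICER1 had 11.15, 10.40 and 15.83 FPKM. It was 7.29% in siEZH2-1 replicate 2, 7.56% in siEZH2-2 replicate 1 and 7.23% in siNC replicate 2, where DICER1 had 8.21, 7.24 and 12.12 FPKM. The part of that share in the DICER1 values was not tested. DICER1-AS1, antisense to DICER1, had 0.36 to 0.76 FPKM in the EZH2 series and 0.06 to 0.25 FPKM in the LAT1 series.

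TARBP2, the partner of DICER1 in the loading complex, did not change in a way that passed the test. It had 8.72 and 10.83 FPKM with siEZH2-1 and 10.37 and 8.93 FPKM with siEZH2-2, against 7.88 and 9.89 FPKM with siNC. TARBP2 had 6.90 and 5.92 FPKM with siLAT1-2 and 6.20 and 6.03 FPKM with siLAT1-3, against 6.88 and 5.84 FPKM with siNC. The groups overlapped in both series. The log2 change was 0.12 in the EZH2 series (95% interval -0.17 to 0.40, limma adjusted p = 0.482) and -0.02 in the LAT1 series (-0.20 to 0.17, limma adjusted p = 0.882). MAP3K12, which overlaps TARBP2 in the annotation, had 1.87 to 2.63 FPKM in the EZH2 series and 1.36 to 1.76 FPKM in the LAT1 series. The ratio of DICER1 to TARBP2 FPKM was 1.28 and 0.758 with siEZH2-1 and 0.698 and 1.16 with siEZH2-2, against 2.01 and 1.23 with siNC. It was 2.56 and 3.23 with siLAT1-2 and 2.00 and 1.94 with siLAT1-3, against 2.90 and 3.42 with siNC. Of the 4 siRNAs only siLAT1-3 and siEZH2-2 had both libraries below both siNC libraries in this ratio, and the ratio was not tested.

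AGO2, the Argonaute that binds TNRC6 proteins and can cut its target, fell in the EZH2 series. It had 6.87 and 6.41 FPKM with siEZH2-1 and 5.16 and 5.77 FPKM with siEZH2-2, against 9.51 and 8.35 FPKM with siNC. The groups did not overlap, and the level was 74.4% of siNC with siEZH2-1 and 61.2% with siEZH2-2. The log2 change of the mean was -0.50 (95% interval -0.68 to -0.32, limma adjusted p = 0.00479), with 13.0% of all genes called lower. With siEZH2-2 it was -0.62 (SE 0.09, limma adjusted p = 0.00408). With siEZH2-1 it was -0.38 (SE 0.09, limma adjusted p = 0.0229), a call that ended without siEZH2-1 replicate 1 (adjusted p = 0.0579), siEZH2-1 replicate 2 (0.13) or siNC replicate 1 (0.129), and with no filter on low values (0.0959). The difference, siEZH2-2 minus siEZH2-1, of -0.24 did not pass (-0.45 to -0.03, limma adjusted p = 0.113).

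In the LAT1 series AGO2 did not fall. It had 12.04 and 11.58 FPKM with siLAT1-2 and 12.07 and 11.46 FPKM with siLAT1-3, against 11.27 and 11.0 FPKM with siNC. The siRNA libraries were just above siNC, and the log2 change of 0.08 did not pass (95% interval -0.02 to 0.17, limma adjusted p = 0.178). The interval does not reach the fall seen in the EZH2 series, though the difference between series was not tested since the tables were fitted apart. AGO2 made up 31.2% and 31.6% of the summed FPKM of AGO1 to AGO4 with siEZH2-1 and 31.9% and 32.0% with siEZH2-2, against 41.8% and 41.3% with siNC. The share was 44.0% and 43.5% with siLAT1-2 and 44.2% in both siLAT1-3 libraries, against 46.5% and 44.2% with siNC. In the EZH2 series AGO1, part of that sum, had a mean of 10.2 FPKM with siEZH2-1 and 6.96 with siEZH2-2. With siNC it had 7.86 FPKM.

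Counted together, 2 of the 8 partners passed in the EZH2 series, DROSHA higher and AGO2 lower, where 30.0% of all genes were called. All 8 were tested, their median log2 change was -0.05, and that of all genes was 0.03. With the LAT1 siRNAs 7 of the 8 were tested and 3 passed, DROSHA and XPO5 higher and DICER1 lower, where 34.5% of all genes were called. Their median was 0.08, against 0.01 for all genes. With siEZH2-1 and with siEZH2-2 alone 2 of 8 passed, where 27.2% and 24.8% of all genes were called. With siLAT1-2 4 of 7 passed and with siLAT1-3 2 of 7, where 32.5% and 31.4% of all genes were called. Between the LAT1 siRNAs TNRC6A, TNRC6B, DICER1 and DGCR8 differed, 4 of the 8 genes tested, and between the EZH2 siRNAs DROSHA alone did, 1 of 9. Of all genes, 12.4% were higher and 13.1% lower with siLAT1-3 than with siLAT1-2, and 7.40% were higher and 8.86% lower with siEZH2-2 than with siEZH2-1. All 4 siRNA libraries lay on the same side of both siNC libraries for 4 of 8 partners in the EZH2 series (TNRC6C, AGO2, DICER1 and DROSHA). This was so for 40.4% of all genes. In the LAT1 series it was so for 4 of the 7 tested (AGO2, DICER1, DROSHA and XPO5), against 41.3% of all genes. The shares called in these contrasts are close to those of all genes, apart from larger ones with siLAT1-2 and between the LAT1 siRNAs that rest on few genes.

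**Figure D3:**
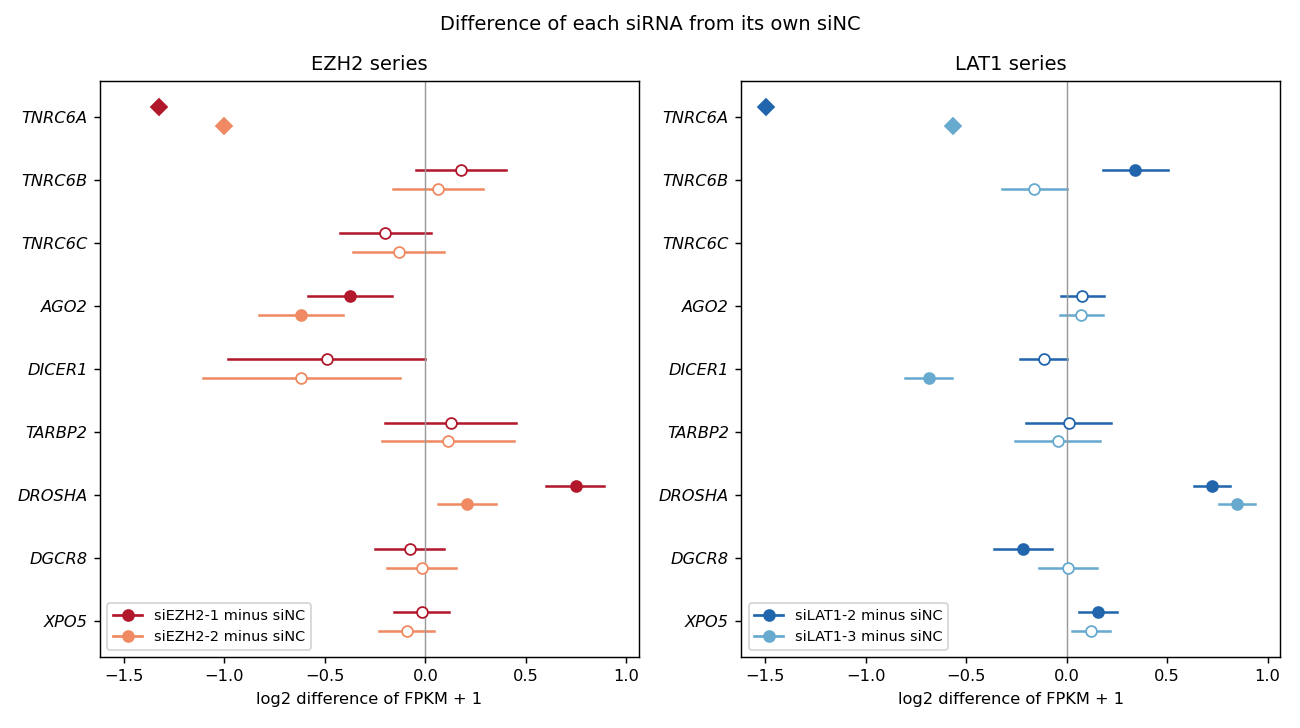
Log2 change of each gene with each siRNA against the siNC of its series (dots; bars are 95% intervals from limma, filled dots passed at an adjusted p under 0.05, diamonds show TNRC6A, with no test, and TNRC6C was not tested with siLAT1). DROSHA is to the right of 0 with all 4 siRNAs, AGO2 is to the left with the EZH2 siRNAs only, and DICER1 with siLAT1-3 stands apart from siLAT1-2.

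**Figure D4:**
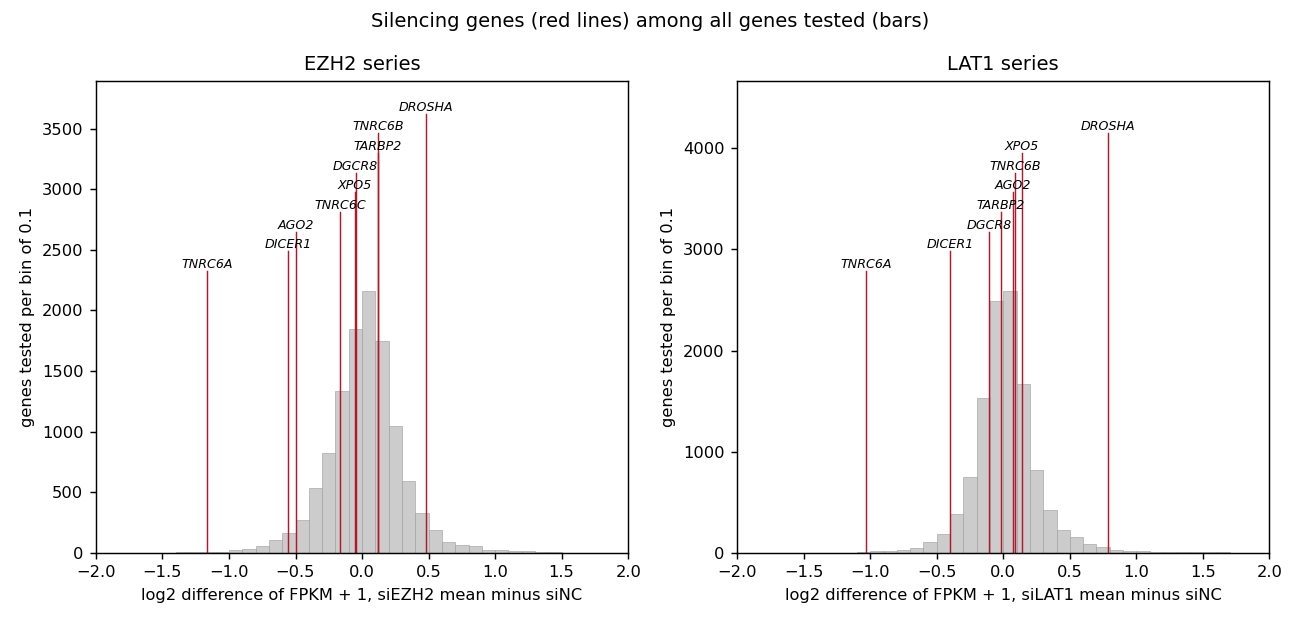
Distribution of the log2 change of the mean of both siRNAs against siNC over all genes tested in each series, with the silencing genes marked (9 left, 8 right, since TNRC6C was not tested with siLAT1). TNRC6A lies in the far lower tail at -1.17 and -1.03, and DROSHA in the upper tail at 0.48 and 0.79. In the EZH2 series DICER1 at -0.55 and AGO2 at -0.50 lie in the lower tail, further from 0 than DROSHA. The remaining genes there, and all others in the LAT1 series, are nearer the centre than DROSHA.

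Other genes of the pathway were taken from 8 lists with 116 symbols, of which 114 were found. In the EZH2 series 17 of the 106 tested rose and 13 fell, with a median log2 change of 0.01 (0.03 over all genes). With siLAT1 33 of 104 rose and 14 fell, with a median of 0.03 (0.01 over all genes). Of all genes, 17.0% rose and 13.0% fell with siEZH2, and 19.3% rose and 15.3% fell with siLAT1. A call below is that of the mean of both siRNAs, and where 1 siRNA of the pair did not pass, the values of both follow.

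The other Argonautes and the second Dicer partner were 4 genes. AGO1 had 11.72 and 11.62 FPKM with siLAT1-2 and 11.60 and 11.01 FPKM with siLAT1-3, against 8.91 and 9.60 FPKM with siNC, and rose (log2 change 0.29, SE 0.04, limma adjusted p = 0.00294). In the EZH2 series it had 10.53 and 9.95 FPKM with siEZH2-1 and 6.52 and 7.41 FPKM with siEZH2-2, against 8.22 and 7.50 FPKM with siNC. There its level was above siNC with siEZH2-1 (log2 change 0.34, limma adjusted p = 0.0249) and below it with siEZH2-2 (-0.16, adjusted p = 0.215). The mean change of 0.10 did not pass (adjusted p = 0.349, limma). By the mean of both siRNAs AGO3, AGO4 and PRKRA did not pass in either series. Their log2 changes were -0.08, -0.02 and -0.11 with siEZH2 and -0.20, -0.09 and 0.02 with siLAT1 (limma adjusted p from 0.0611 to 0.885). PRKRA was called lower with siEZH2-1 (-0.20, limma adjusted p = 0.0467) and not with siEZH2-2 (-0.03, adjusted p = 0.744). The summed FPKM of AGO1 to AGO4 was 21.1 ± 1.22 with siEZH2-1 and 17.1 ± 1.31 with siEZH2-2, against 21.5 ± 1.79 with siNC. It was 27.0 ± 0.523 with siLAT1-2 and 26.6 ± 0.948 with siLAT1-3, against 24.5 ± 0.453 with siNC.

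Chaperones that open Argonaute for loading had calls toward higher levels only, by the mean of both siRNAs. Of 12 tested, 4 rose and none fell with siEZH2, where 17.0% of all genes rose. With siLAT1 8 rose and none fell, where 19.3% rose. The median log2 changes were 0.10 and 0.14. Of the EZH2 calls, FKBP4 and CDC37 did not pass with siEZH2-2 alone (limma adjusted p = 0.117 and 0.233). Of the LAT1 calls, FKBP4 had 0.03 with siLAT1-2 (limma adjusted p = 0.579) and 0.29 with siLAT1-3 (0.00257). PTGES3 had 0.15 with siLAT1-2 (limma adjusted p = 0.0116) and 0.09 with siLAT1-3 (0.0767). PTGES3 was called lower with siEZH2-1 alone (log2 change -0.22, limma adjusted p = 0.0329). AHSA1, which stimulates HSP90, had 140.18 and 148.33 FPKM with siEZH2-1 and 140.93 and 131.92 FPKM with siEZH2-2, against 98.0 and 103.89 FPKM with siNC. Its log2 change was 0.47 with siEZH2 (limma adjusted p = 0.00161) and 0.29 with siLAT1 (limma adjusted p = 0.00027). FKBP5, an HSP90 co-chaperone, rose by 0.46 with siEZH2 (adjusted p = 0.00774, limma) and by 0.40 with siLAT1 (adjusted p = 0.00335, limma).

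Among 16 cofactors of the DROSHA complex and proteins that bind primary microRNAs, 2 rose and 2 fell with siEZH2, and 6 rose and 2 fell with siLAT1. RBFOX2, a splicing regulator, rose by 0.36 with siLAT1 (limma adjusted p = 0.000387) and by 0.19 with siEZH2 (0.0409), this second value from 0.31 with siEZH2-1 (0.0159) and 0.08 with siEZH2-2 (0.414). KHSRP, which binds the loops of let-7 precursors, rose by 0.17 with siLAT1 (limma adjusted p = 0.00239) and by 0.19 with siEZH2 (0.0159), which was 0.15 with siEZH2-1 (0.0565) and 0.23 with siEZH2-2 (0.0148). The change of NCBP2, of the nuclear cap-binding complex, was carried by 1 siRNA in each series. It fell by 0.22 with siEZH2 (limma adjusted p = 0.0139), with -0.14 for siEZH2-1 (0.0903) and -0.30 for siEZH2-2 (0.00856), and by 0.31 with siLAT1 (0.00084), with -0.54 for siLAT1-2 (0.000147) and -0.08 for siLAT1-3 (0.176). Its partner NCBP1 fell by 0.27 with siEZH2 (limma adjusted p = 0.0147), with -0.11 for siEZH2-1 (0.246) and -0.44 for siEZH2-2 (0.00528). The helicase DDX17 fell by 0.12 with siLAT1 (limma adjusted p = 0.0107), a mean of -0.24 with siLAT1-2 (0.00104) and 0.01 with siLAT1-3 (0.872).

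The deadenylases that TNRC6 proteins recruit, with poly(A) binding proteins, were 20 genes, of which 4 rose and 3 fell with siEZH2 and 6 rose and 5 fell with siLAT1. CNOT6, a catalytic subunit of the CCR4-NOT deadenylase, had 19.69 and 19.85 FPKM with siLAT1-2 and 16.22 and 16.42 FPKM with siLAT1-3, against 31.99 and 31.64 FPKM with siNC, a log2 change of -0.79 (SE 0.03, limma adjusted p = 1.21e-05). In the EZH2 libraries its change was 0.07 with siEZH2-1 (0.674, limma adjusted p) and -0.50 with siEZH2-2 (0.0175). TOB1, an adaptor of that complex, had 8.04 and 8.72 FPKM with siLAT1-2 and 19.15 and 19.83 FPKM with siLAT1-3, against 24.84 and 24.06 FPKM with siNC. It fell with both siRNAs, by 1.44 with siLAT1-2 (limma adjusted p = 1.13e-05) and by 0.31 with siLAT1-3 (0.00334). It also fell by 0.25 with siEZH2 (limma adjusted p = 0.0298), with -0.35 for siEZH2-1 (0.0169) and -0.14 for siEZH2-2 (0.206). Its paralog TOB2 rose, by 0.51 with siEZH2 (limma adjusted p = 0.000939) and by 0.32 with siLAT1 (0.000564). The related adaptor BTG2 rose by 0.39 with siEZH2 (limma adjusted p = 0.0038). With siLAT1 BTG2 rose by 0.25 (limma adjusted p = 0.0111), with 0.48 for siLAT1-2 (0.0015) and 0.03 for siLAT1-3 (0.793). BTG1 fell by 0.32 with siEZH2 (limma adjusted p = 0.0128), with -0.63 for siEZH2-1 (0.00209) and -0.01 for siEZH2-2 (0.946), and rose by 0.15 with siLAT1 (0.0187), with 0.21 for siLAT1-2 (0.00763) and 0.08 for siLAT1-3 (0.201). TNKS1BP1, which binds CCR4-NOT, rose by 0.27 with siLAT1 (limma adjusted p = 0.000571) and by 0.38 with siEZH2 (0.00301).

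Decapping, decay and P-body proteins were 21 genes, of which 20 were tested in each series. With siEZH2 4 rose and 2 fell, and with siLAT1 6 rose and 2 fell. EDC3, an enhancer of decapping, had 14.64 and 16.24 FPKM with siEZH2-1 and 15.65 and 15.36 FPKM with siEZH2-2, against 9.45 and 9.61 FPKM with siNC. It rose by 0.65 with siEZH2 (limma adjusted p = 0.000713) and by 0.51 with siLAT1 (0.000127). DCP2, the decapping enzyme, had 8.70 and 8.51 FPKM with siLAT1-2 and 14.84 and 14.70 FPKM with siLAT1-3, against 7.46 and 6.87 FPKM with siNC, and a log2 change of 0.59 for the mean (limma adjusted p = 0.00013). Its change was -0.36 with siEZH2-1 (limma adjusted p = 0.0707) and 0.93 with siEZH2-2 (0.00315). Its activator DCP1A fell by 0.28 with siEZH2 (limma adjusted p = 0.00707), with -0.40 for siEZH2-1 (0.00368) and -0.17 for siEZH2-2 (0.0725), and by 0.28 with siLAT1 (0.00452). In the LAT1 series that mean joined unlike values for DCP1A, -0.70 with siLAT1-2 (limma adjusted p = 0.000177) and 0.14 with siLAT1-3 (0.108). DDX6, a helicase that joins deadenylation to decapping, fell by 0.22 with siLAT1 (limma adjusted p = 0.00456), a mean of -0.01 with siLAT1-2 (0.846) and -0.42 with siLAT1-3 (0.000584). Of the subunits of the Lsm ring, LSM4 rose by 0.33 with siEZH2 (limma adjusted p = 0.0171), with 0.41 for siEZH2-1 (0.0143) and 0.25 for siEZH2-2 (0.0752). LSM5 fell by 0.59 for the mean of the EZH2 siRNAs (limma adjusted p = 0.000926), a value made of 0.20 with siEZH2-1 (0.0633) and -1.38 with siEZH2-2 (0.000148).

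Argonaute cofactors and regulators were 18 genes, 17 of them tested, with 2 higher and 3 lower with siEZH2 and 4 higher and 3 lower with siLAT1. ANKRD52, of the phosphatase that acts on AGO2, had 43.18 and 43.80 FPKM with siLAT1-2 and 38.90 and 38.77 FPKM with siLAT1-3, against 27.08 and 28.96 FPKM with siNC, a log2 change of 0.54 (SE 0.03, limma adjusted p = 7.06e-05). The EZH2 siRNAs moved ANKRD52 in opposite directions, by 0.69 with siEZH2-1 (limma adjusted p = 0.000669) and -0.44 with siEZH2-2 (0.00306). PPP6C, of the same phosphatase, was lower with siEZH2 (log2 change -0.32, limma adjusted p = 0.0101). That mean joined -0.11 with siEZH2-1 (0.272) and -0.52 with siEZH2-2 (0.00312). With siLAT1 PPP6C was also lower (-0.24, limma adjusted p = 0.00112), a mean of -0.44 with siLAT1-2 (1.73e-04) and -0.05 with siLAT1-3 (0.337). CSNK1A1, the kinase on the opposite side of that cycle, fell by 0.34 with siEZH2 (limma adjusted p = 0.0207), a mean of -0.62 with siEZH2-1 (0.00445) and -0.05 with siEZH2-2 (0.695). TNPO1, a nuclear import receptor, fell by 0.54 with siEZH2 (limma adjusted p = 0.0149) and by 0.29 with siLAT1 (0.00196). ZSWIM8, the ubiquitin ligase receptor that acts on Argonaute in target-directed microRNA decay, fell by 0.35 with siLAT1 (limma adjusted p = 0.00752). The RNA-binding protein FXR2 rose by 0.32 with siEZH2 (limma adjusted p = 0.00527) and its relative FXR1 by 0.22 with siLAT1 (0.0025). FXR2 also rose by 0.17 with siLAT1 (limma adjusted p = 0.0121), with 0.07 for siLAT1-2 (0.233) and 0.27 for siLAT1-3 (0.00387). SND1, also RNA-binding, rose by 0.22 with siEZH2 (limma adjusted p = 0.0176), with 0.27 for siEZH2-1 (0.0177) and 0.18 for siEZH2-2 (0.06). With siLAT1 SND1 rose by 0.14 (limma adjusted p = 0.00582).

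Small RNA tailing and turnover held 13 genes, 10 of them tested. With siEZH2 none rose and 2 fell, the exonuclease ERI1 by 0.57 (limma adjusted p = 0.00487) and the uridylyltransferase TUT7 by 0.36 (0.0357). With siLAT1 2 rose and 2 fell. TUT7 fell by 0.17 (limma adjusted p = 0.0238) and TSN by 0.52 (0.0002), while TSNAX, whose protein forms a nuclease with that of TSN, rose by 0.22 (0.0349) and PNPT1 rose by 0.17 (0.015). For TUT7 the single values were -0.47 with siEZH2-1 (limma adjusted p = 0.0263), -0.25 with siEZH2-2 (0.161), -0.09 with siLAT1-2 (0.213) and -0.25 with siLAT1-3 (0.0105). For TSNAX they were 0.34 with siLAT1-2 (limma adjusted p = 0.0123) and 0.10 with siLAT1-3 (0.348). MicroRNA host transcripts were 12 symbols, 10 found, with 7 tested for siEZH2 and 5 for siLAT1. MIR22HG fell by 0.45 with siEZH2 (limma adjusted p = 0.0124), with -0.20 for siEZH2-1 (0.204) and -0.71 for siEZH2-2 (0.00464). MCM7 rose by 0.17 with siEZH2 (limma adjusted p = 0.0335), with 0.20 for siEZH2-1 (0.0362) and 0.14 for siEZH2-2 (0.0957). Of the 5 tested with siLAT1, limma called 0. Mature microRNAs were not analysed here.

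**Figure D5:**
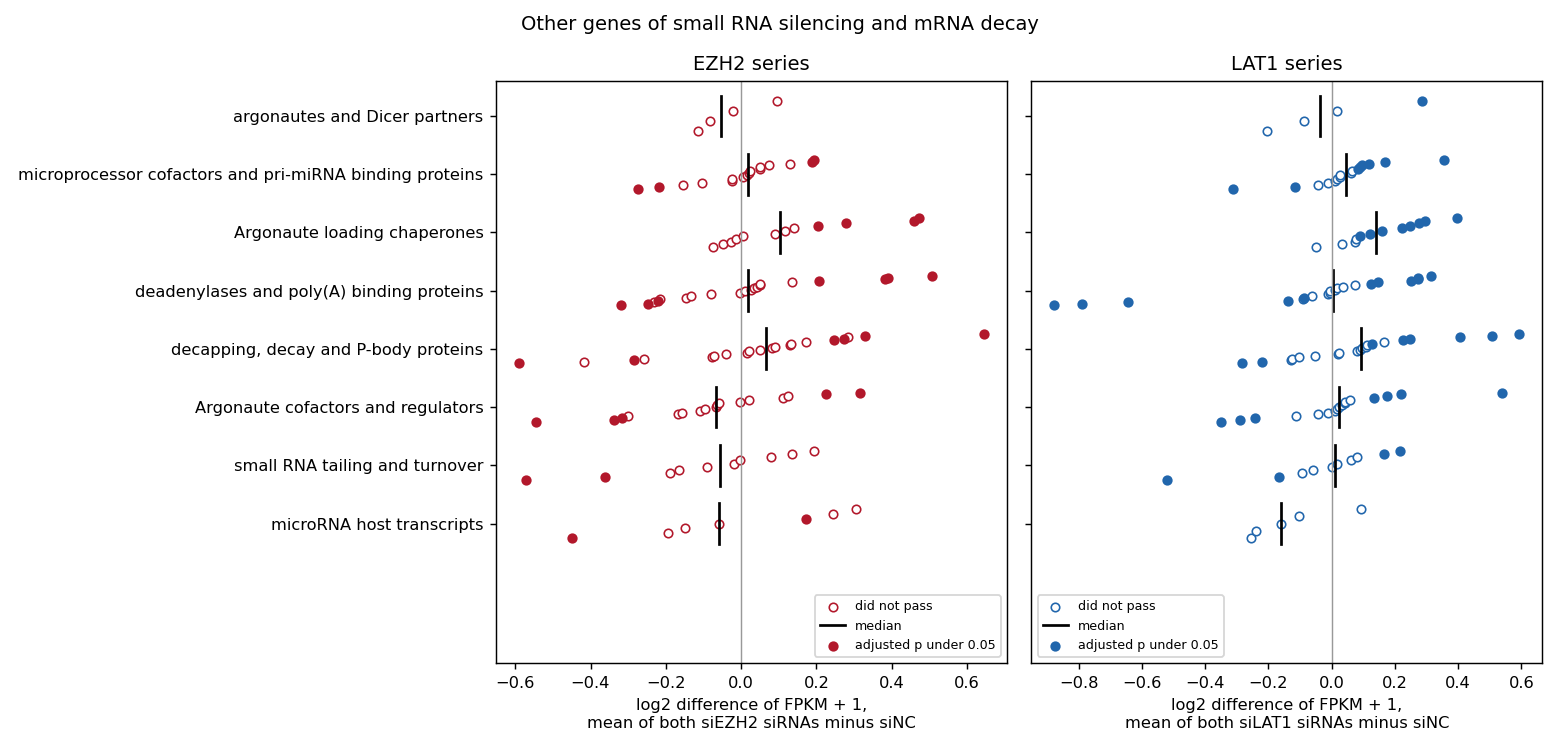
Log2 change of the mean of both siRNAs against siNC for each tested gene of 8 lists (dots, filled where limma's adjusted p is under 0.05) with the list median (black line), EZH2 series left and LAT1 series right. The chaperone list has filled dots to the right of 0 only, and TOB1 and CNOT6 lie furthest left in the LAT1 series.

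Over the 12 libraries, each series centred on its own mean, the genes whose log2 levels ran most like TNRC6A among 10804 genes were VCL (Pearson r = 0.979), SERTAD4 (0.974), C2orf43 (0.973), MID1 (0.971) and CD274 (0.966). VCL, the adhesion protein vinculin, had log2 changes of -0.68 with siEZH2 and -0.72 with siLAT1. CD274, the immune checkpoint ligand PD-L1, had -0.40 and -0.24. None of the 7 partners compared was among these. TNRC6C, under 1 FPKM in the LAT1 series, was not compared. The partners' r with TNRC6A was 0.733 for DGCR8, 0.464 for AGO2, 0.418 for DICER1, -0.333 for TARBP2, -0.356 for XPO5, -0.655 for TNRC6B and -0.752 for DROSHA. Ranked from the highest r down among these 10804 genes, DGCR8 was 721st and DROSHA 9648th. The r values include the TNRC6A levels that chose the set. They describe libraries that share groups and controls, and no p is given.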

How the data were processed

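The authors deposited 1 table of FPKM per series (63677 genes, 2 decimals, 6 libraries each). That the unit is FPKM was read from the values, whose column sums were 245634 to 275399. In low values of short RNA genes, 84.8% to 89.9% were whole reads within 0.1 reads at the best depth found (20% by chance at a fixed depth). Bowtie, STAR, Bowtie2, Trim Galore, Picard, SEACR, hg19 and hg38 are named, per the submitters' processing notes, without a role. The counting program and strand setting are not given in the sources used here. In the LAT1 series the siNC libraries were numbered by their descriptions, since their titles share a number. The 2 CUT&Tag samples were not analysed here.

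A count test had been planned if the tables held counts; as they held FPKM, log2(FPKM + 1) was fitted with limma 3.58.1 (trend) in R 4.3.3, each table alone, 1 group per siRNA and siNC, keeping genes that averaged 1 FPKM or more. There were 3 residual degrees of freedom. Fold changes on this scale understate the change of low genes. Calls were two-sided at a Benjamini-Hochberg adjusted p under 0.05 over all genes tested, and intervals cover 95%. With 4 libraries against 2, the smallest p of an exact permutation test is 0.0667. The fit was tested on simulated data. Python 3.11.15 with pandas 2.3.3 made the summaries and matplotlib 3.10.9 the plots.

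Members, lists and tests were chosen with earlier results of these data known. Named were all 9 members, per list and series the 2 highest and 2 lowest called genes (all of the Argonaute list), and the 5 genes most like TNRC6A. A few other list genes, such as PPP6C, are given beside them. Overlapping genes come from RefSeq. Tried as alternatives were a pseudocount of 0.1, quantile normalization, a minimum of 5 FPKM, no filter, pooled siRNAs, a replicate block and each library left out.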

Additional observations from a re-analysis of the deposited data

How the results depend on the processing

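Over 72 results for single genes and 749 alternatives, 670 kept their direction and side of the threshold, 39 lost a call, 9 gained one, 27 changed sign and 4 moved without a test. Leaving out each library gave 1360 to 3360 genes called with siEZH2 (3481 with all libraries), 1201 to 3037 with siEZH2-1 (3156), 1445 to 2479 with siEZH2-2 (2874), 650 to 1499 between the EZH2 siRNAs (1883), 2288 to 3602 with siLAT1 (4032), 2364 to 3756 with siLAT1-2 (3796), 2138 to 3526 with siLAT1-3 (3672) and 1958 to 2536 between the LAT1 siRNAs (2981). The number of members called went between 1 and 2 with siEZH2-1, 1 and 2 with siEZH2-2, and 1 and 4 with siLAT1-2. Changes of sign on leaving out a library concerned results that were not called with all libraries. They were DGCR8 with siEZH2 (-0.100 to 0.004), siEZH2-2 (-0.071 to 0.034) and siLAT1-3 (-0.026 to 0.036). For TARBP2 the sign changed with siEZH2 (-0.029 to 0.266), siEZH2-1 (-0.022 to 0.272) and siEZH2-2 (-0.035 to 0.259). It also changed for TARBP2 with siLAT1 (-0.120 to 0.085), siLAT1-2 (-0.092 to 0.112) and siLAT1-3 (-0.147 to 0.057). The same held for TARBP2 between the EZH2 siRNAs (-0.155 to 0.129) and between the LAT1 siRNAs (-0.151 to 0.040). XPO5 changed sign with siEZH2-1 (-0.048 to 0.010) and between the LAT1 siRNAs (-0.078 to 0.011). DICER1 did so between the EZH2 siRNAs, over a wide range (-0.360 to 0.108). The last were TNRC6B with siEZH2-2 (-0.016 to 0.142) and AGO2 between the LAT1 siRNAs (-0.040 to 0.029). Quantile normalization changed the sign of TARBP2 with siLAT1-2 (-0.003), DGCR8 with siLAT1-3 (-0.005) and AGO2 between the LAT1 siRNAs (0.008), none of them called.

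With both siRNAs pooled as 1 group, 1153 genes and 1 member were called with siEZH2 and 1309 genes and 1 member with siLAT1. With no filter on low values, which tested more genes, 1820 genes were called with siEZH2, 1604 with siEZH2-1, 1554 with siEZH2-2, 836 between the EZH2 siRNAs, 2402 with siLAT1-3 and 1823 between the LAT1 siRNAs. Members called then were 1 with siEZH2-1, 1 with siEZH2-2 and 2 with siLAT1-2. Quantile normalization left 1 member called with siEZH2-2. These settings used all libraries, and the cause of the changed counts was not tested.

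The replicate numbers did not pair the libraries alike in all groups. In the EZH2 series within-group differences correlated at 0.35 between siEZH2-1 and siNC. Those of siEZH2-2 correlated at -0.35 with siEZH2-1 and at -0.34 with siNC. The main fit had no term for differences shared in this way, and their source was not tested. In the LAT1 series the correlations were 0.02 to 0.08. With replicate number as a block, 2388 genes were called with siEZH2, 2007 with siEZH2-1, 1021 between the EZH2 siRNAs and 3768 with siLAT1, and 1 member was called with siEZH2-1 and 1 with siEZH2-2. The block ended the calls of AGO2 with siEZH2-1 (limma adjusted p = 0.0539), DROSHA with siEZH2-2 (0.11), and DGCR8 with siLAT1-2 (0.0514) and between the LAT1 siRNAs (0.0578). A block with the numbers of siEZH2-2 exchanged, chosen after seeing the data, called 6319 genes and 4 members with siEZH2, 6069 and 5 with siEZH2-1, 5695 with siEZH2-2, and 4627 and 3 between the siRNAs. With 2 libraries per group, the calls for DROSHA with siEZH2-2, DGCR8 with siLAT1-2 and XPO5 with siLAT1 did not hold when certain single libraries were left out, as given in the results.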
